A study of Mus musculus with 8 samples.

Results

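The 37 complement genes examined here are the components, regulators and receptors of the complement system that were chosen by name, and all 37 were found among the 22052 genes measured. They were measured by RNA sequencing of total RNA from whole livers of 8 male C57BL6 mice aged 8 weeks, all of which had received corn oil by the intraperitoneal route. The 4 control mice carried floxed alleles of both genes (Zfp36l1fl/fl/Zfp36l2fl/fl) and no recombinase. The 4 double knockout (dKO) mice carried the same alleles with Alb-Cre, a Cre recombinase under the albumin promoter that acts in hepatocytes and in cells that descend from albumin-expressing precursors, such as those of the bile ducts. Each of the 8 libraries had between 15253827 and 19299556 gene-assigned reads. Levels are normalised read counts, which are reads divided by 1 size factor per library, as mean ± SD over 4 livers per group. Differences are dKO minus control in the mean of log2(value + 0.5), where the added 0.5 makes changes of weakly read genes smaller. Folds and percentages of the control mean are ratios of group means. They can therefore depart from the log2 differences, in either direction, where a liver stands apart from its group. Adjusted p-values are those of limma with Benjamini-Hochberg adjustment over 20055 genes. A gene is said to have risen or fallen where that value was under 0.05.

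Complement is a cascade of plasma proteins, most of them made by hepatocytes, that marks microbes and debris, attracts leukocytes and punctures membranes. The classical pathway starts with C1q, which liver macrophages rather than hepatocytes supply, and the lectin pathway with collectins and ficolins that bind sugars. Both cleave C4 and C2, the alternative pathway amplifies the cleavage of C3, and the terminal proteins C5 to C9 form the membrane attack complex. The proteins deleted here, ZFP36L1 and ZFP36L2, recognise AU-rich sequences in the 3′ ends of mRNAs and hasten their decay.

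Since the deleted proteins bind AU-rich sequence, the members' 3′ UTRs were searched for TATTTAT, the core of that element. It was present in 5 of the 37 members (13.5%), against 30.1% of the 15424 tested genes with an annotated 3′ UTR. All 3 receptors held it, as did Cd55 and Masp1. The stretches are given 5′ to 3′ on the strand of the gene, as DNA, with the matches in capitals and overlapping matches joined, because they are the only members in which the searched element was found.

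C3ar1: atacatTATTTATtcagtt
C5ar1: agcacgTATTTATTTATtttgtg
C5ar2: tttaatTATTTATtgcctg
Cd55: taaaccTATTTATATTTATTTATatccgt
Masp1, nearer the stop codon: atagcgTATTTATccttat
Masp1, farther from it: ttattcTATTTATcctcca

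On GRCm38 (GENCODE M21), all on the minus strand and in the 3′ UTR, these lie at chr6:122847309-122847327 for C3ar1, chr7:16247203-16247225 for C5ar1 and chr7:16235887-16235905 for C5ar2. The Cd55 stretch is at chr1:130439089-130439117, and those of Masp1 are at chr16:23450354-23450372 and chr16:23450269-23450287. C5ar1 held 2 overlapping matches and Cd55 held 3. The element is found more often in long 3′ UTRs, and the longest annotated ones of these genes measured 2685 bases (C3ar1), 1295 (C5ar1), 2339 (C5ar2), 1285 (Cd55) and 2965 (Masp1). Among tested genes with 1000 to 3000 bases 38.6% held it, as did 5 of 8 members. None of the 23 members under 500 bases held it, against 7.24% of such genes. With 500 to 1000 bases it was 0 of 4 members, against 19.7% of genes. With 3000 bases or more it was 0 of 2 members, against 63.9% of genes. Those 2 were Colec10 (3749 bases) and Colec12 (5637 bases), which both fell. The 3 receptors rose in dKO livers, whereas Cd55 and Masp1 were called neither way. Of the 11 members that rose, 3 held the element (27.3%), against 30.1% of all tested genes with a 3′ UTR. Of the 12 members that fell, 0 held it.

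The targeted transcripts were lower in all dKO livers. Zfp36l1 stood at 1321, 1336, 1182 and 1642 in controls 1 to 4 and at 214, 213, 209 and 267 in dKO 1 to 4. Zfp36l2 fell to 50.3% of its control mean (adjusted p = 0.000689). Mitochondrial transcripts made up 4.06% to 4.74% of reads in controls and 3.09% to 3.70% in dKO livers, without overlap. Whether whole-liver RNA holds fewer cells of a type or less RNA per cell cannot be told apart in these bulk samples.

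Of the 37 members, 11 rose (29.7%), 12 fell (32.4%) and 14 did neither. Over all tested genes 21.2% rose, 17.0% fell and 38.2% were called in either direction. The median member difference was 0.03, and over all genes it was also 0.03. Values of the 2 groups did not overlap for 21 members (56.8%), against 36.4% of all tested genes. The members are abundant transcripts: 23 had a mean of 1000 or more, of which 5 rose and 10 fell, while 21.2% of all 2653 genes at that level rose and 37.7% fell. A change of 2-fold or more was seen for 7 members that rose (18.9%) and 3 that fell (8.11%), against 12.8% and 3.97% of all genes. By role, the receptors rose (3 of 3), the C1q chains rose (3 of 3), 4 of 7 terminal genes and 5 of 9 lectin pathway genes fell, and no terminal gene rose.

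**Figure D1:**
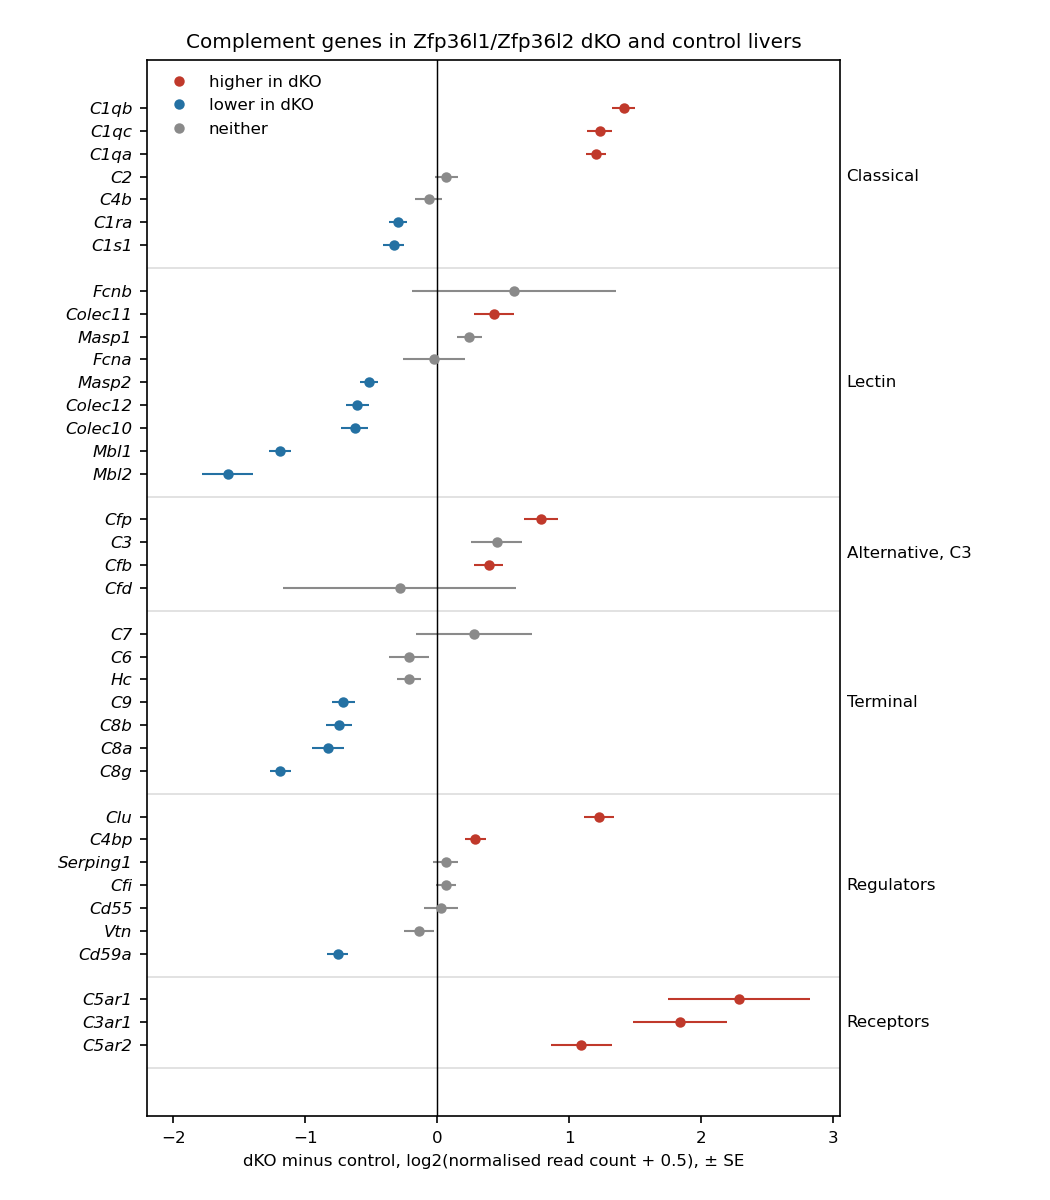
Difference between dKO and control livers (x axis, log2 of normalised read count + 0.5) for the 37 complement genes, grouped by role, with 4 livers per group. Points are differences and bars their standard errors. Red genes rose, blue genes fell and grey genes did neither. The 3 receptors, the 3 C1q chains and Clu (1.22) lie at the right and Mbl2 at the far left (-1.59).

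C1qa, C1qb and C1qc encode the 3 chains of C1q, the recognition molecule of the classical pathway. C1qa stood at 944, 839, 961 and 878 in controls 1 to 4 and at 2047, 2161, 1915 and 2219 in dKO 1 to 4. Every dKO liver was above every control, and C1qa rose 2.30-fold (log2 difference 1.20, SE 0.08, adjusted p = 2.1e-07). For C1qb the controls held 968, 945, 914 and 925 and the dKO livers 2287, 2567, 2267 and 2923. The controls thus lay close together, and C1qb rose 2.68-fold (log2 difference 1.41, SE 0.09, adjusted p = 1.5e-07). C1qc rose 2.35-fold, from 877 ± 89.4 to 2056 ± 207 (log2 difference 1.23, SE 0.09), again without overlap. The 3 genes are neighbours on the minus strand of chromosome 4, from C1qb (136880129 to 136886187) over C1qc (136889804 to 136893065) to C1qa (136895917 to 136898803), on GRCm38. Within each liver, C1qc over C1qa was 0.968 ± 0.0721 in the control group and 0.984 ± 0.0402 in the dKO group. C1qb over C1qa was 1.04 ± 0.0724 and 1.20 ± 0.0838, with the lowest dKO liver (1.12) just under the highest control (1.13).

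Macrophage markers were examined beside C1q. All 10 markers of monocytes and recruited macrophages rose, and their summed level ran from 1696 to 6049 in controls and from 8392 to 12549 in dKO livers. Among 8 markers of Kupffer cells, the resident macrophages of the liver, 3 were called higher, 1 lower and 4 neither way, with sums of 7960 to 9892 and 9186 to 15154. No marker of either list was at 0 in a whole group. Relative to Clec4f, a lectin of Kupffer cells, the C1qa level was 0.416 ± 0.0609 in the control group and 1.02 ± 0.248 in the dKO group, without overlap. Relative to Cd68, a lysosomal protein of macrophages, it was 5.10 ± 1.12 and 3.88 ± 0.776, with overlap. Control 4 had the highest monocyte and macrophage sum among controls (6049) but not the highest C1q sum (2668, between 2597 and 2882 in the other controls), and without it the C1qa difference was 1.19. The part of macrophage number in the C1q rise was not tested.

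**Figure D2:**
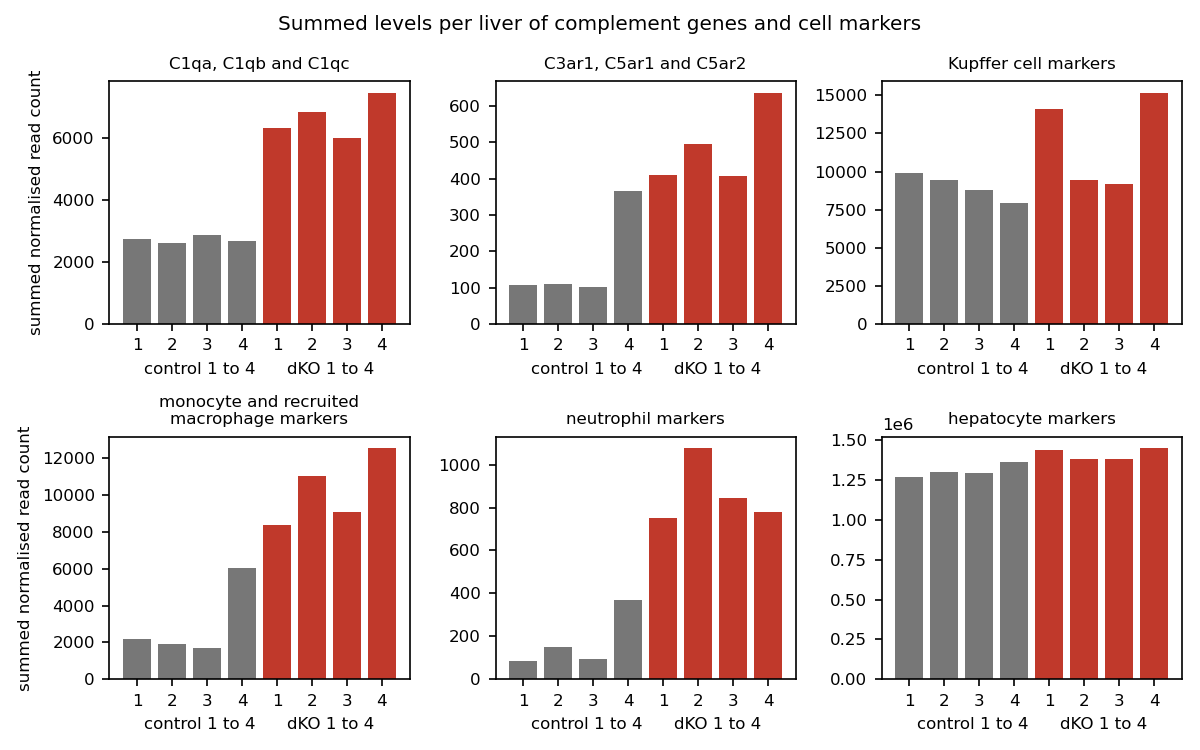
Summed normalised read counts (y axis) in each liver for the C1q chains, the anaphylatoxin receptors and 4 lists of cell markers; bars are single livers, grey for controls 1 to 4 and red for dKO 1 to 4. The C1q sum is 2597 to 2882 in controls and 6004 to 7455 in dKO livers, while control 4 stands above the other controls for the receptors and for the monocyte and neutrophil markers.

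The proteases that C1q activates went the other way. C1ra fell from 4501 ± 211 to 3664 ± 157 (log2 difference -0.30, SE 0.07, adjusted p = 0.00403), and C1s1 from 6571 ± 373 to 5233 ± 446 (-0.33, SE 0.08, adjusted p = 0.00624). Both falls were free of overlap and were of about the same size, and the C1s1 to C1ra ratio was 1.46 ± 0.0918 in controls and 1.43 ± 0.13 in dKO livers. With quantile normalization neither was called (adjusted p = 0.152 and 0.377). The near-identical copies C1rb and C1s2 were far lower, at 12.8 ± 4.16 and 5.60 ± 3.15 in controls, and reads shared with them cannot be told apart. C4b, the fourth component that both initiating pathways cleave, stood at 39822 ± 4093 and 37897 ± 2020 (adjusted p = 0.649), far above its near-identical copy C4a at 307 ± 172 and 407 ± 93. C2, the protease that joins C4b in the C3 convertase, stood at 632 ± 16.1 and 665 ± 66.7 (adjusted p = 0.569).

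Both mannose-binding lectins, recognition molecules of the lectin pathway, fell. Mbl1, which encodes the mannose-binding lectin A of mice, stood at 3968, 3535, 3667 and 3162 in controls 1 to 4 and at 1718, 1585, 1432 and 1520 in dKO 1 to 4. It fell to 43.6% of the control mean with no overlap (log2 difference -1.19, SE 0.09, adjusted p = 5.7e-07). Mbl2, the mannose-binding lectin C, stood at 5047, 5205, 5628 and 4694 in the controls and at 2102, 1171, 2527 and 1358 in the dKO livers. It fell to 34.8% (log2 difference -1.59, SE 0.19, adjusted p = 4.3e-05), and dKO 1 and dKO 3 held more of it than dKO 2 and dKO 4. The ratio of Mbl2 to Mbl1 was 1.27 to 1.53 in controls and 0.739 to 1.76 in dKO livers, so the lectins varied apart from each other within the dKO group.

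The collectins and ficolins were mixed. Colec10 (collectin liver 1) fell from 515 ± 50.2 to 333 ± 35.5, and Colec12, a scavenger receptor with a collectin domain, from 1024 ± 43 to 675 ± 71.9 (adjusted p = 0.000414 and 0.000137, no overlap for either). Colec11, the partner of Colec10 in circulating heteromers, stood at 377, 340, 597 and 432 in controls and at 540, 645, 580 and 538 in dKO livers. Control 3 lay inside the dKO range. Its rise (log2 difference 0.43, SE 0.15, adjusted p = 0.0376) was lost in 7 of the 8 settings that left out 1 liver, up to an adjusted p of 0.119 without control 2. Stellate cell and fibroblast markers rose for 7 of 10 genes and fell for 1, with sums of 4701 to 8693 in controls and 11300 to 15252 in dKO livers, and their part in the collectin values was not tested.

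Fcna, the ficolin of macrophages, averaged 525 ± 13.6 in the control group and 554 ± 234 in the dKO group (adjusted p = 0.943). The single dKO livers held 651, 435, 300 and 830, on both sides of the controls, which ran from 508 to 540. Relative to Clec4f the level was 0.241 ± 0.0322 and 0.251 ± 0.0502. Fcnb, a ficolin of neutrophils and their precursors, had 2 reads in all controls together and 5 in the dKO livers, each library at or below a floor of 3 counts (2.55 to 3.43 normalised read counts), so no fold is given. All 10 neutrophil markers rose, with sums of 82.1 to 369 in controls and 752 to 1077 in dKO livers. Ltf and Ly6g, a granule protein and a surface marker of neutrophils, were at 0 reads in all controls. Over the dKO livers Ltf had 199 reads and Ly6g only 8, with Ly6g above the floor in dKO 3 alone (4.26).

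The serine proteases that lectins activate parted. Masp2, which cleaves C4 and C2, stood at 2747, 2805, 2985 and 2938 in controls and at 2135, 1889, 2011 and 1979 in dKO livers. It fell to 69.8% of the control mean (log2 difference -0.52, SE 0.07, adjusted p = 6.9e-05) with no overlap. Its exons share up to 1742 bases with Tardbp on the other strand, which fell from 1524 ± 38.2 to 1279 ± 16.5, and whether the counting used strand is not stated in the labels, so reads of the pair cannot be told apart. Masp1, whose products include MASP-1 and MASP-3, stood at 1725 ± 139 and 2043 ± 239 (log2 difference 0.24, SE 0.09, adjusted p = 0.0646). It was called higher by edgeR (adjusted p = 0.0498), with quantile normalization (0.0198) and without dKO 2 (0.0153). Within each liver, Masp2 over Masp1 was 1.52 to 1.79 in controls and 0.861 to 1.10 in dKO livers, with no overlap.

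**Figure D3:**
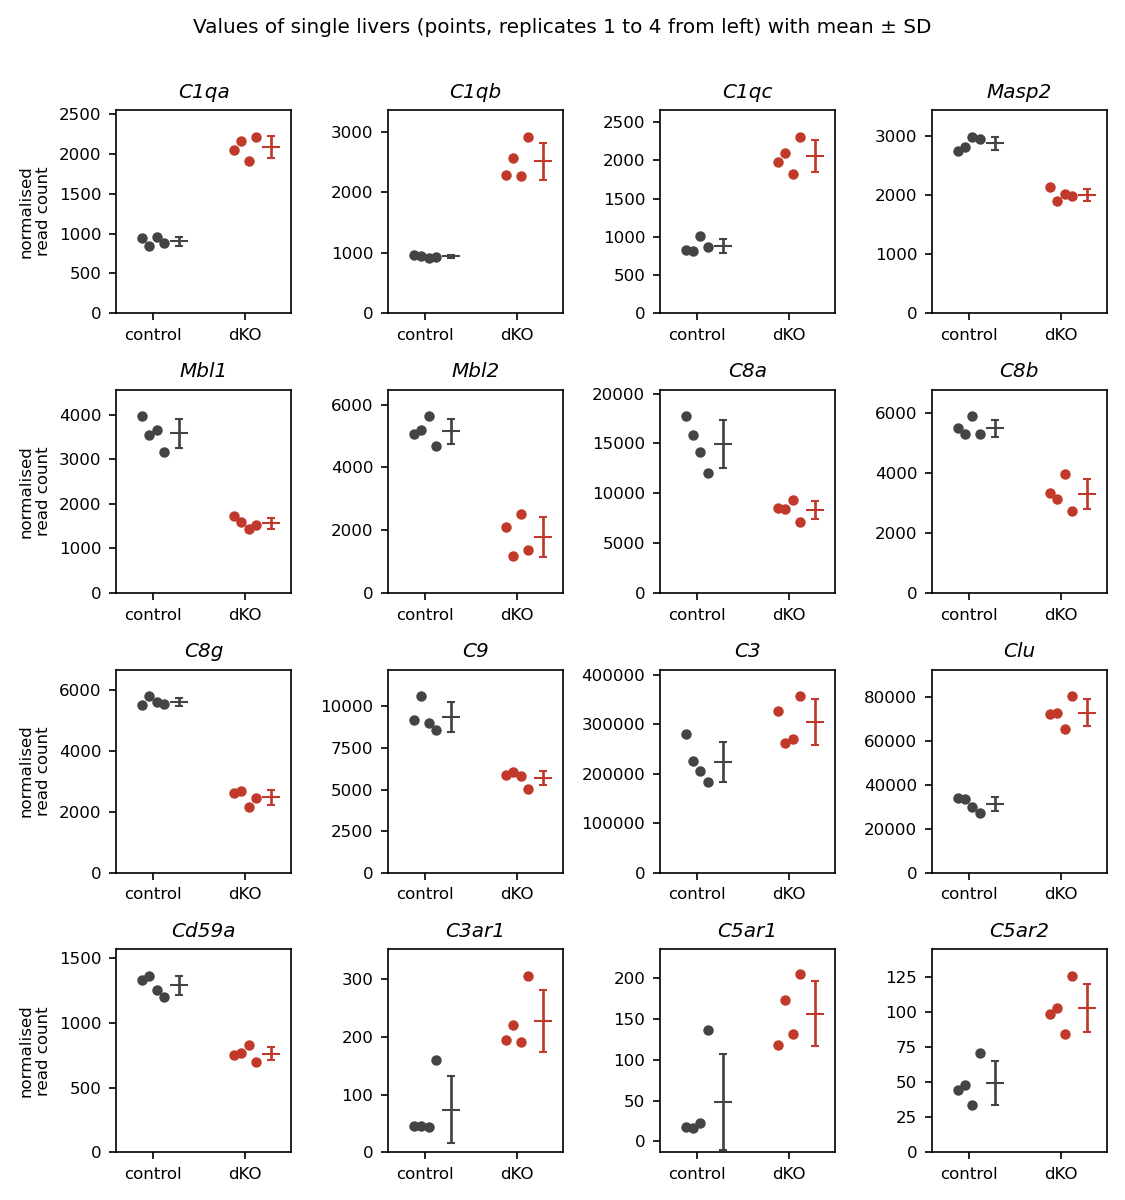
Normalised read counts (y axis, linear) of 16 complement genes in each liver, grey for control and red for dKO, replicates 1 to 4 from left to right, with mean ± SD beside the points. C8g and Mbl1 lie in separate ranges by group, C3 overlaps, and control 4 stands apart from the other controls for C3ar1 (160) and C5ar1 (136).

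C3, the component on which all pathways converge, was the most abundant member per length in both groups. It stood at 279224, 224428, 205829 and 183776 in controls 1 to 4 and at 327334, 261321, 269848 and 356652 in dKO 1 to 4. Control 1 lay above dKO 2 and dKO 3, and the difference of 0.45 (SE 0.19) had an adjusted p of 0.0848. It passed the threshold with edgeR (0.0227), DESeq2 (0.00601), robust variances (0.0149) and without control 1 (0.0435), and over all alternatives its adjusted p ran up to 0.225, without control 4. The alternative pathway has its own protease, factor B, and Cfb rose from 174 ± 17.7 to 227 ± 11.5 (log2 difference 0.39, SE 0.11, adjusted p = 0.0152) with no overlap, a call that was lost with quantile normalization (adjusted p = 0.0867). Cfb and C2 are neighbours on chromosome 17, and Cfb (34856374 to 34862518) ends just before C2 (34862604 to 34898265). Gm20547, on the same strand and not among the genes measured, shares up to 234 bases of exon with Cfb and 225 with C2. C2 also shares up to 161 bases with Zbtb12 on the other strand, which stood at 65.3 ± 15.1 and 78.2 ± 11.3. Reads from these stretches cannot be told apart.

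Properdin (Cfp), which stabilises the alternative convertase and is made by myeloid cells, stood at 444, 495, 411 and 443 in controls and at 825, 687, 629 and 991 in dKO livers. It rose 1.75-fold (log2 difference 0.79, SE 0.13, adjusted p = 0.00039) with no overlap. Relative to Cybb, an oxidase gene of myeloid cells, Cfp was 0.759 to 1.59 in controls and 0.247 to 0.385 in dKO livers. Cfd (adipsin, factor D), which is made mainly by fat cells, had 3 reads over all controls and 3 over all dKO livers, at or below the floor in each library. Adipoq, a defining gene of fat cells, was at 0 reads in all dKO livers and reached 3.08 in control 1 alone.

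Genes of the membrane attack complex were lower from C8 on. C8a, C8b and C8g encode the 3 chains of C8, which inserts into the target membrane. C8a stood at 17722, 15855, 14124 and 12038 in controls and at 8509, 8457, 9319 and 7116 in dKO livers. It fell to 55.9% (log2 difference -0.83, SE 0.12, adjusted p = 0.000162). C8b fell from 5488 ± 282 to 3297 ± 511, to 60.1% (log2 difference -0.75, SE 0.10). C8g, whose chain belongs to the lipocalins and lies on another chromosome, stood at 5509, 5797, 5614 and 5535 in controls and at 2627, 2666, 2149 and 2438 in dKO livers. Its fall to 44.0% was the largest of the terminal genes (log2 difference -1.19, SE 0.08, adjusted p = 2.9e-07).

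C9, the chain that polymerises into the pore, stood at 9196, 10627, 8991 and 8590 in controls and at 5878, 6036, 5814 and 5059 in dKO livers, and fell to 60.9% (log2 difference -0.71, SE 0.09, adjusted p = 4.4e-05). None of the 4 genes overlapped between groups. The earlier terminal genes were not called. Hc, the mouse name of C5, stood at 21132 ± 1987 and 18132 ± 912 (adjusted p = 0.0813), and was called lower by DESeq2 (adjusted p = 0.0294) and without control 4 (0.0361), while quantile normalization turned its sign (difference 0.12, adjusted p = 0.252). C6 stood at 2230 ± 209 and 1963 ± 524 (adjusted p = 0.291), or 0.0293 without dKO 3, the dKO liver with the highest value (2657). C7, which stromal cells also make, stood at 83.2, 75.9, 22.1 and 158 in controls and at 90.5, 86.9, 72.4 and 84.7 in dKO livers, so the controls spread wider than the groups differed (adjusted p = 0.656). C6, C7 and C9 lie near one another on chromosome 15, and of these C9 alone was called.

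Hepatocyte genes were examined beside these falls. Of 8 hepatocyte markers 3 rose, 2 fell and 3 did neither, and their sum was 1273400 to 1363800 in controls and 1381300 to 1451100 in dKO livers. Albumin (Alb) stood at 773160 ± 55865 and 824048 ± 26104 (adjusted p = 0.785), and apolipoprotein B (Apob) at 111024 ± 13123 and 102422 ± 14776 (adjusted p = 0.561), and neither was called, nor was Apoa1. Transthyretin (Ttr), a plasma carrier of thyroid hormone, fell to 54.9% of its control mean and apolipoprotein H (Apoh) to 68.5% (adjusted p = 0.000132 and 0.000205), beside 44.0% to 60.9% for the C8 genes and C9. Transferrin (Trf) rose 1.88-fold, fetuin A (Ahsg) 1.63-fold and fibrinogen beta chain (Fgb) 1.47-fold. The marker list thus held genes that moved in both directions, its sum is mostly albumin, and the part of hepatocyte number in the falls of C8 and C9 was not tested.

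Of the 7 regulators of complement 2 rose, 1 fell and 4 did neither. Clu (clusterin), a secreted chaperone that keeps the terminal complex from inserting, stood at 33970, 33646, 30076 and 27113 in controls and at 72280, 72901, 65542 and 80466 in dKO livers. It rose 2.33-fold (log2 difference 1.22, SE 0.11, adjusted p = 4.6e-06), and every dKO value was far above every control. C4bp, which binds C4b and helps to degrade it, rose from 10100 ± 617 to 12310 ± 690 (log2 difference 0.29, SE 0.08, adjusted p = 0.0118) with no overlap. Relative to C4b its level was 0.256 ± 0.0296 in the control group and 0.325 ± 0.0179 in the dKO group.

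Cd59a, the membrane anchor protein that blocks the polymerisation of C9, went down. It stood at 1334, 1363, 1253 and 1203 in controls and at 752, 770, 829 and 700 in dKO livers. It fell to 59.2% (log2 difference -0.76, SE 0.08, adjusted p = 1.1e-05) with no overlap. Its close copy Cd59b fell as well, from 62.3 ± 19.5 to 22.1 ± 6.73 (adjusted p = 0.00215), and reads may be shared between the copies. The other 4 regulators were called neither way. Serping1, the C1 inhibitor, stood at 17404 ± 1515 and 18175 ± 1488, and Cfi, the protease that inactivates C3b and C4b, at 11620 ± 741 and 12118 ± 395. With quantile normalization both were called higher (adjusted p = 0.00218 and 0.00393). Vtn (vitronectin), another inhibitor of the terminal complex, stood at 52683 ± 4298 and 47912 ± 4472 (adjusted p = 0.362). Cd55, which hastens the decay of convertases, stood at 259 ± 40.7 and 264 ± 31.3 (adjusted p = 0.893).

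The receptors for the anaphylatoxins, the small fragments cut from C3 and C5, were low in controls and higher in dKO livers. C3ar1, the C3a receptor, stood at 45.2, 46.2, 44.2 and 160 in controls 1 to 4 and at 194, 220, 191 and 305 in dKO 1 to 4. Control 4 stood apart from the other controls but below every dKO liver. C3ar1 rose 3.08-fold, or 5.04-fold without control 4 (log2 difference 1.84, SE 0.36, adjusted p = 0.00128, and 2.29 without control 4). C5ar1, the main C5a receptor, stood at 17.5, 16.4, 23.1 and 136 in controls and at 118, 173, 131 and 205 in dKO livers. Control 4 lay above dKO 1 and dKO 3, and C5ar1 rose 3.24-fold, or 8.24-fold without control 4 (log2 difference 2.29, SE 0.54, adjusted p = 0.00468, and 2.99 without control 4). DESeq2 did not call it (adjusted p = 0.0593).

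C5ar2, the C5a receptor that does not couple to G proteins, stood at 44.2, 48.2, 33.7 and 70.9 in controls and at 98.5, 103, 84.3 and 126 in dKO livers. It rose 2.09-fold without overlap (log2 difference 1.09, SE 0.23, adjusted p = 0.00238). These are the 3 members with 3′ UTR stretches printed above that rose. Myeloid markers moved with them: control 4 also held the highest sums of monocyte and macrophage markers (6049, against 1696 to 2155 in the other controls) and of neutrophil markers (369, against 82.1 to 151). In dKO livers C3ar1 over Cd68 was 0.384 to 0.434 and in controls 1 to 3 it was 0.258 to 0.292, with 0.634 in control 4. C5ar1 over Cd68 was 0.258 to 0.314 in dKO livers, 0.104 to 0.135 in controls 1 to 3 and 0.539 in control 4. The part of myeloid cell number in the receptor values was not tested.

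Levels were compared between members only per length, as normalised read counts per kb of exon. In controls C3 led at 43420 per kb, before Vtn at 25950, Clu at 9078, Serping1 at 7485 and C4b at 6992. The first 6 places, which Cfi closes at 5234 per kb, were held by the same genes in the same order in dKO livers. Below them the order changed. Mbl2 went from place 7 (4723 per kb) to place 15 (1643 per kb), and Mbl1 from place 12 to place 19, while C1qb went from place 19 (862) to place 8 (2308) and C1qa from place 17 to place 11. Receptors stood near the bottom in both groups, at 13.8 to 18.8 per kb in controls and 28.9 to 60.9 in dKO livers. Together the 37 members took 2.38% to 3.10% of all normalised reads in controls and 3.15% to 3.73% in dKO livers, of which C3 and the alternative pathway genes made up 1.06% to 1.57% and 1.58% to 2.09%.

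**Figure D4:**
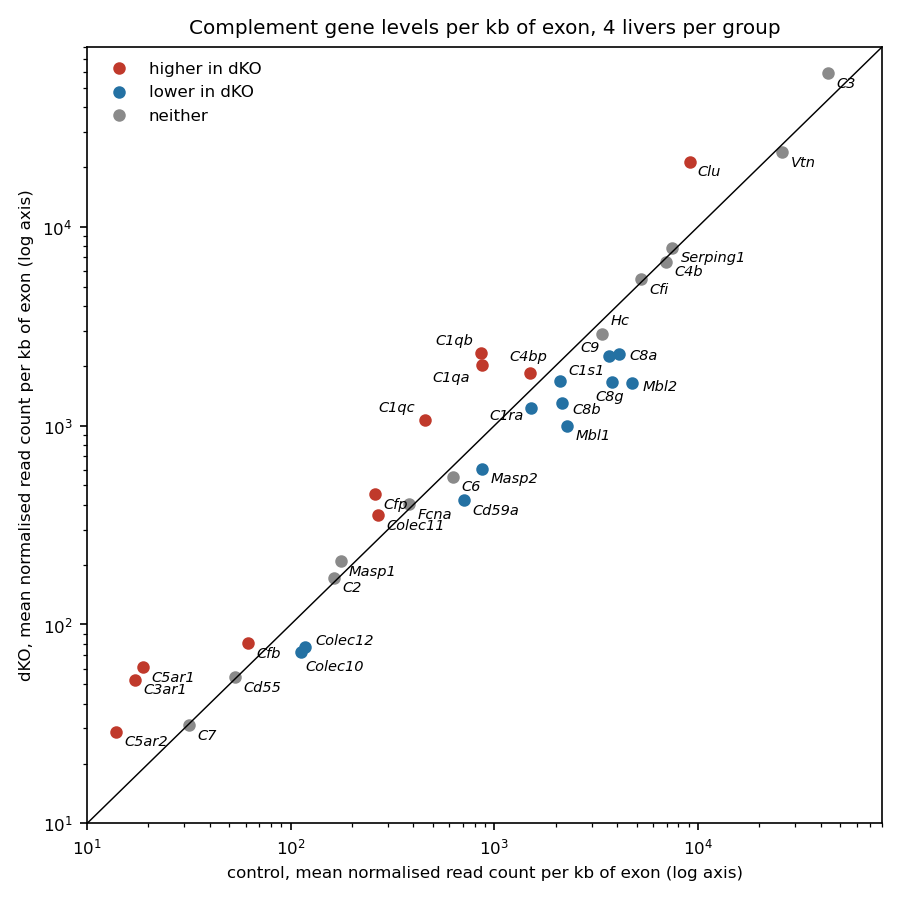
Mean level per kb of exon in control (x axis) and dKO livers (y axis), both log axes, for the 35 members above 5 per kb in controls; each point is a gene, the line marks equal levels and colours mark the call. Mbl1, Mbl2 and the C8 genes lie below the line, and the C1q chains, Clu and the receptors above it.

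Other genes of the complement system were counted from a further list of 30 genes, of which 29 matched and 27 were tested. Of these 6 rose, 7 fell and 14 did neither, with a median difference of 0.01, against the 21.2% of all tested genes that rose and the 17.0% that fell. Susd4, a membrane inhibitor of complement, stood at 388, 567, 470 and 420 in controls and at 35.2, 28.7, 17 and 39.1 in dKO livers. It showed the largest fall of all complement genes examined, to 6.50% of the control mean (log2 difference -3.97, SE 0.23, adjusted p = 1.1e-07). C1rl, a protease related to C1r, fell from 2664 ± 56.4 to 1852 ± 234.

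Cpb2, a plasma carboxypeptidase that trims the anaphylatoxins, rose from 6595 ± 638 to 11218 ± 1346 (log2 difference 0.76, SE 0.10), whereas the constitutive carboxypeptidase chain Cpn1 stood at 4671 ± 337 and 4707 ± 354 (adjusted p = 0.934). Among the receptors on this list, Itgax, a chain of complement receptor 4, rose from 26.5 ± 22.7 to 224 ± 40.5. Control 4 (60.6, against 14.4 to 15.8) raised its control mean, and the 8.45-fold rise was 14.8-fold without that liver. Itgam, the chain of complement receptor 3, was chosen after its values were seen. It stood at 145 ± 190 and 268 ± 71.3 (adjusted p = 0.0502), with 427 in control 4, and its log2 difference of 1.72 was 2.53 without that liver (adjusted p = 0.000385). Cd93, once described as a C1q receptor, rose from 192 ± 62.3 to 751 ± 184. Ptx3, a pentraxin that binds C1q, was at 1.09 ± 1.26 in controls, below the floor of 3 counts in each control library, and at 9.80 ± 2.21 in dKO livers. The C1q-binding proteins C1qbp (adjusted p = 0.936) and Calr (adjusted p = 0.947) were called neither way. The remaining called genes were Itgb2 and Thbd, which rose, and Cpn2, which fell, and each lost its call under 1 or more alternatives. The rise of Itgb2, the chain shared by both receptors, was 2.23-fold, or 3.72-fold without control 4.

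Sequences before the start sites were searched where the reference held them, which it did for 27 of the 37 members (RefSeq, GRCm38.p6, 250 bases before to 50 after each start). A gene was counted where any of its promoters held a motif, and the 32851 promoters belonged to 27025 genes. Of 6 motifs searched on both strands, the STAT motif TTCNNNGAA was found for 6 members and for 9.55% of all these genes. The C/EBP motif TTGCNNAA was found for 6 members and for 12.2% of genes. The NF-kB motif was found for 1 member (6.31% of genes), the HNF1 motif for 2 (0.47%), the interferon response element for 3 (3.99%) and the HNF4 motif CAAAGTCCA for 0 (0.555%). Of the 8 matched members that rose, 1 held the STAT and 1 the C/EBP motif, and of the 10 that fell, 3 held each. Matches of 5 genes the results turn on, with the motif in capitals and 10 bases on each side on the strand of the gene, are printed to show how near the start they lie.

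C3ar1, NF-kB motif, rose: ggtgactcatGGAAAGGCCCttcctgtgca
C4bp, HNF1 motif, rose: gctctagtctGTTAATCATTcaccgggaca
C8a, STAT motif, fell: aacaaaactcTTCACTGAActgattttag
C9, C/EBP motif, fell: ttttggtttaTTGCATAAtgacactttg
Masp2, STAT motif, fell: catgggtagaTTCCCAGAAtccttggttt

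These windows lie at chr6:122856152-122856181 (minus strand) for C3ar1, chr1:130661663-130661692 (minus) for C4bp and chr4:104876608-104876636 (minus) for C8a. Those of C9 and Masp2 are at chr15:6445204-6445231 and chr4:148602481-148602509, both on the plus strand. The matches begin 14 bases before the start for C3ar1, 64 for C4bp, 228 for C8a, 132 for C9 and 53 for Masp2. They describe the letters present and say nothing of binding. The neighbouring C1qb and C1qc, which rose together, held none of the 6 motifs in their windows, nor did Mbl1 and Mbl2, which fell together.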

How the data were processed

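Gene-level values of 8 whole-liver libraries, 4 control and 4 dKO, were analysed. The tools named per the submitters' processing notes are HISAT2 2.0.5, fastp, DESeq2 and featureCounts 1.5.0-p3, and the build is mm10. Their roles, the annotation and the strand setting are not stated there. Although the table's name reads FPKM, its deposited values are a signal of another kind: in each library 100% of values were whole multiples of 1 step (within 0.001), as arises when the authors divide read counts by a size factor. Dividing by the steps gave back the reads. The design had foreseen a test on the log scale, and it was kept.

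Of 22052 identifiers 21812 matched GENCODE M21. Genes with a mean of 0.5 or more (20055) were tested as log2(value + 0.5) with limma 3.58.1 (eBayes with a trend, group alone, 2-sided, R 4.3.3). edgeR 4.0.16 and DESeq2 1.42.0 on the recovered reads, other filters, scalings and pseudocounts, and leaving out each liver were alternatives. The floor is 3 counts per library and covers counting error only. Fitting was tested on data with known answers. Levels per kb use the union of annotated exons. Named genes are all 37 members, the called genes of the further complement list with the smallest adjusted p and its most abundant uncalled ones, and markers from 10 lists. Some genes of the further list are not reported here. The members, lists and tests were chosen with earlier results of these data known. The mice are numbered separately in each group. Biliary markers rose for 5 of 5 genes, endothelial ones for 2 of 7 (1 fell), mesothelial ones for 1 of 4 and B cell ones for 0 of 4 (3 fell). Of the adipocyte list only Cidec was tested, and it rose.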

Additional observations from a re-analysis of the deposited data

Results flagged for a closer look

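In 4 of 74 groups of 4 livers, 1 liver lay farther from the other 3 than Dixon's limit allows, where chance alone gives about 1 group in 20. C3ar1 in control 4 was at 160.1, against 44.2 to 46.2 in the other controls, and C5ar1 in control 4 at 136.1, against 16.4 to 23.1. Both are receptors of myeloid cells, and control 4 also held the highest monocyte, macrophage and neutrophil marker sums among controls. Cd55 in dKO 1 was at 217.2, below 274.2 to 285.8 in the other dKO livers. Cfd in dKO 1 was at 3.017, which is 3 reads, with 0 reads in the other dKO livers.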

How the results depend on the processing

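Over 17 alternatives, 18 of the 23 called members kept their call and direction under all of them, and the calls of 26 of the 37 members did not change where they were tested. The other 11 are C1ra, C1s1, Masp1, Colec11, C3, Cfb, Hc, C6, Cfi, Serping1 and C5ar1, whose values stand beside them in the report. Members higher in dKO numbered 10 to 13 and members lower 10 to 13. Quantile normalization moved the median difference of all genes from 0.03 to -0.08 and gave 3638 genes higher and 4312 lower, against 4244 and 3410, while it raised the differences of abundant members such as Serping1 (0.06 to 0.38) relative to that median. Same-numbered livers did not deviate together (correlations -0.0163 to 0.0296), so the numbers were not treated as pairs. With the mouse number as a replicate block, 4021 genes were higher and 3112 lower, and 11 and 12 members, as without the block. Fcnb and Cfd got no result from edgeR, DESeq2 or with a minimum mean of 10, and at their depth a difference was not detectable. Of the other members C5ar1, C5ar2 and C3ar1 had the fewest reads over the controls, 174, 184 and 271. The folds of Itgax and Itgb2 and the values of Itgam without control 4 were chosen for print after seeing the data.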

Other observations

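Within the dKO group, Fcna and several Kupffer cell markers split the livers alike. Fcna stood at 651, 435, 300 and 830 in dKO 1 to 4, Marco, a scavenger receptor of resident macrophages, at 1306, 391, 297 and 1744, and Cd5l, a secreted macrophage protein, at 5089, 3186, 3015 and 5229. Timd4, a phosphatidylserine receptor of resident macrophages, was at 140, 41.6, 44.3 and 137, and Clec4f at 2579, 1689, 1615 and 2694. For these genes dKO 1 and dKO 4 were above dKO 2 and dKO 3. The split was not particular to them, and C3, Vtn, Serping1, Cfp and Fgb had it too. C3 stood at 327334, 261321, 269848 and 356652 in dKO 1 to 4, and Cfp at 825, 687, 629 and 991. The Kupffer cell marker Adgre1, at 555, 530, 631 and 777, did not have it. C1qa, at 2047, 2161, 1915 and 2219, did not split the livers this way, and neither did Mbl2, at 2102, 1171, 2527 and 1358. This split was noticed in the values and was not tested.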
